A study of Mus musculus with 11 samples.

Results

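Myrf, Tmem98 and Fbxw7 were measured in cultured mouse oligodendrocyte lineage cells, in the presence and absence of an intact Myrf gene. They are 3 of 18194 genes named on the array. Every probe set that the platform annotation assigns to exactly 1 of these genes was taken, which gave 4 probe sets of 45101, or of the 34958 that carry a single gene symbol. Myrf and Tmem98 have 1 probe set each and Fbxw7 has 2, and all 4 passed the filter on dim probe sets, a signal of at least 200 on at least 3 of the 11 arrays, which left 18568 to test. Both Fbxw7 probe sets were designed on the same transcript record, so they are not independent measurements.

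Myrf is a transcription factor made as a protein anchored in the membrane of the endoplasmic reticulum. It cuts itself, and the released part enters the nucleus and binds DNA at genes of central nervous system myelin. Tmem98 is another protein of that membrane, which binds Myrf and inhibits the cut. Fbxw7 is the subunit by which an SCF ubiquitin ligase recognises its substrates, and it marks Myrf, once phosphorylated by the kinase GSK-3, for degradation, as it does many growth regulators.

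Knockout oligodendrocytes (n = 3) came from MRF fl/fl; Olig2 wt/cre mice, in which both Myrf copies can be deleted. Control oligodendrocytes (n = 4) came from MRF wt/fl; Olig2 wt/cre littermates. Both groups therefore carry a Cre allele in the Olig2 gene, which is active in the oligodendrocyte lineage, and the controls also carry 1 copy that Cre can delete. All cells were from brains at postnatal day 7, selected with antibody to PDGFRα after microglia had been depleted with BSL1, and expanded in PDGF-AA. Oligodendrocytes were collected 4 days after PDGF-AA was withdrawn and the thyroid hormone T3 was added at 40 ng/ml. Progenitors (n = 4) stayed for 6 days in PDGF-AA at 10 ng/ml and are labelled as controls with no genotype. No label states if replicates came from different cultures or mice, so p-values cover only the spread among these arrays, which can be technical.

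All values are MAS 5.0 signals on a linear scale, with each array's trimmed mean at 500, and levels of different probe sets cannot be set against each other. Replicates correlated over probe sets at 0.958 to 0.97 in the knockout group, 0.937 to 0.976 in the controls and 0.816 to 0.973 among progenitors. Progenitor replicate 2 stood apart. Its 4 markers of dividing cells summed to a signal of 8989.6, against 33068.9 to 44364.9 on the other progenitor arrays. Its 5 oligodendrocyte markers summed to 49630.4, against 12142.3 to 38218.6. Most of that sum was Mbp, at 19379.9, and Cnp, at 27152.6. These and Mag were highest there among progenitors, but Mog and Mobp, at 71.1 and 69.9, were below replicate 3, at 88.9 and 751.3. The ratio of 5′ to 3′ Gapdh probe sets, a measure of RNA and labelling length, was 0.332 and 0.12 on progenitor replicates 1 and 4 and 1.15 to 1.41 on the other 9 arrays. For the brightest probe set of Myrf, Tmem98 and Fbxw7, the results that rest on these arrays are given with and without them.

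The transcribed regions lie, in GRCm38.p6, at chr19:10208271-10240777 for Myrf, chr11:80810366-80822033 for Tmem98 and chr3:84814990-84979198 for Fbxw7. RefSeq start regions on that build, from 250 bases before a start to 50 after it, were found for 2 of the 3 genes, in 4 windows. Tmem98 is shown whole, because it is the other member that rose from progenitors to control oligodendrocytes, and each of the 3 Fbxw7 starts by 60 bases, because it has several starts. Both genes are on the plus strand. Capitals mark motifs found by searching both strands for ACAAAG and ACAATG (Sox cores), CTGGCAC and CTGGTAC (Myrf binding sequence), CAGCTG (an E-box), AGGTCA (a single unit of a thyroid receptor element) and GGGCGG (a GC box).
Tmem98, chr11:80810116-80810415: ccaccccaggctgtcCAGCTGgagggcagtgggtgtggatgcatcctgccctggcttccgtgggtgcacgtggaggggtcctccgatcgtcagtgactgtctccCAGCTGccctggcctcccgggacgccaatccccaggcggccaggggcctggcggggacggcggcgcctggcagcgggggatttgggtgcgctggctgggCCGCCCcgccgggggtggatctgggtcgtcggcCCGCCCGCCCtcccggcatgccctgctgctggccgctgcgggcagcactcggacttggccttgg
Fbxw7 start 1, chr3:84815527-84815586: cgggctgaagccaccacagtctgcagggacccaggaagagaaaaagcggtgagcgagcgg
Fbxw7 start 2, chr3:84864095-84864154: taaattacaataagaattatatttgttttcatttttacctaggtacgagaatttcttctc
Fbxw7 start 3, chr3:84952161-84952220: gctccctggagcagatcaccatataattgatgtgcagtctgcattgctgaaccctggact
The Tmem98 window held CAGCTG at -235 and -146 from the start, and the GC box on the minus strand at -47, -14 and -10, the last 2 overlapping. CAGCTG occurs in 16.3% of all 32851 start windows and the GC box in 35.7%. The Tmem98 window held none of the letters of ACAAAG (18.7% of windows), ACAATG (12.6%), CTGGCAC (5.01%), CTGGTAC (2.24%) or AGGTCA (16.3%). With 74.3% G or C and 24 CpG it was richer than the median window, at 52.7% and 7. The Fbxw7 windows differed among themselves, at 69% with 24 CpG for start 1, 29.7% with 1 CpG for start 2 and 46% with 6 CpG for start 3. Outside the stretches printed, starts 1 and 3 held GC boxes, at -187, -171 and -127 and at -105 and -83, and start 2 held ACAATG at 37 bases after the start. The array measures no start site separately, so these windows cannot be tied to a signal.

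Myrf was low in progenitors, high in control oligodendrocytes and about 3-fold lower than that in knockout oligodendrocytes. Its probe set 1439506_at gave 7374.0, 6613.5, 7517.4 and 6215.0 on control replicates 1 to 4, a mean of 6930 ± 620.1 (SD, n = 4). Knockout replicates 1 to 3 gave 2848.6, 1904.4 and 2223.4, a mean of 2325 ± 480.3 (SD, n = 3). All 3 knockout arrays lay below all 4 control arrays, and the mean was 33.6% of the control mean.

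The fitted Myrf difference, knockout minus control, was -1.58 ± 0.58 (SE) on the scale of log2(signal + 16), with a 95% interval from -2.85 to -0.32. In the limma fit over all 11 arrays it did not pass the threshold, with an adjusted p of 0.16. The arrays of the groups were also apart for 29.1% of all probe sets tested, and an exact two-sided permutation test over the 7 arrays gave p = 0.0571, the smallest this design allows. Only 2.18% of probe sets tested had a lower difference than Myrf. The call depends on the spread of the progenitors, which enter the shared variance. Without progenitor replicate 2 the difference was the same and the adjusted p was 0.000297, and with the 7 oligodendrocyte arrays alone it was 0.000288. With the replicate number as a block, since same-numbered arrays of these groups deviated together, the difference was -1.64 at an adjusted p of 0.000826. The sources used here do not say where the probes lie relative to the deleted part of the gene, so the remaining signal measures neither intact transcript nor the completeness of deletion. In these bulk samples fewer cells with the transcript and less transcript per cell cannot be told apart.

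On the progenitor arrays Myrf gave 752.1, 6848.4, 1135.0 and 970.5 on replicates 1 to 4. Replicate 2 was within the range of the control oligodendrocytes and 3 replicates were far below it. Control oligodendrocytes exceeded progenitors by 2.15 ± 0.54 (SE) on the log2 scale, a fold of 4.43, with an adjusted p of 0.00608 in limma. Across the tested probe sets 27% were called higher and 26.3% lower in this comparison, so a call by itself is common here. The exact permutation p for Myrf was 0.0857, where 0.0286 is the smallest possible. Without progenitor replicate 2 the progenitor mean was 952.5 ± 192.1 (SD, n = 3), the fold was 7.28 and the adjusted p was 6.83e-07. With progenitor replicates 2 and 3 alone the difference was 1.30 with an adjusted p of 0.0721.

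Whether knockout oligodendrocytes retained more Myrf signal than progenitors turned on the same array. The fitted difference was 0.56 ± 0.58 (SE) with an adjusted p of 0.435, and the 95% interval ran from -0.70 to 1.83. Without progenitor replicate 2 it was 1.27, a ratio of means of 2.44, with an adjusted p of 0.000258 in limma. All 3 knockout arrays then lay above all 3 progenitor arrays, where the exact permutation p of 0.1 is the smallest possible. With progenitor replicates 2 and 3 alone the difference turned to -0.28, with an adjusted p of 0.706. With all arrays kept but weighted by quality, it was 1.38 with an adjusted p of 0.00124. By group mean control oligodendrocytes were first, and whether the knockout group and the progenitors were separated depended on how that array was treated.

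**Figure D1:**
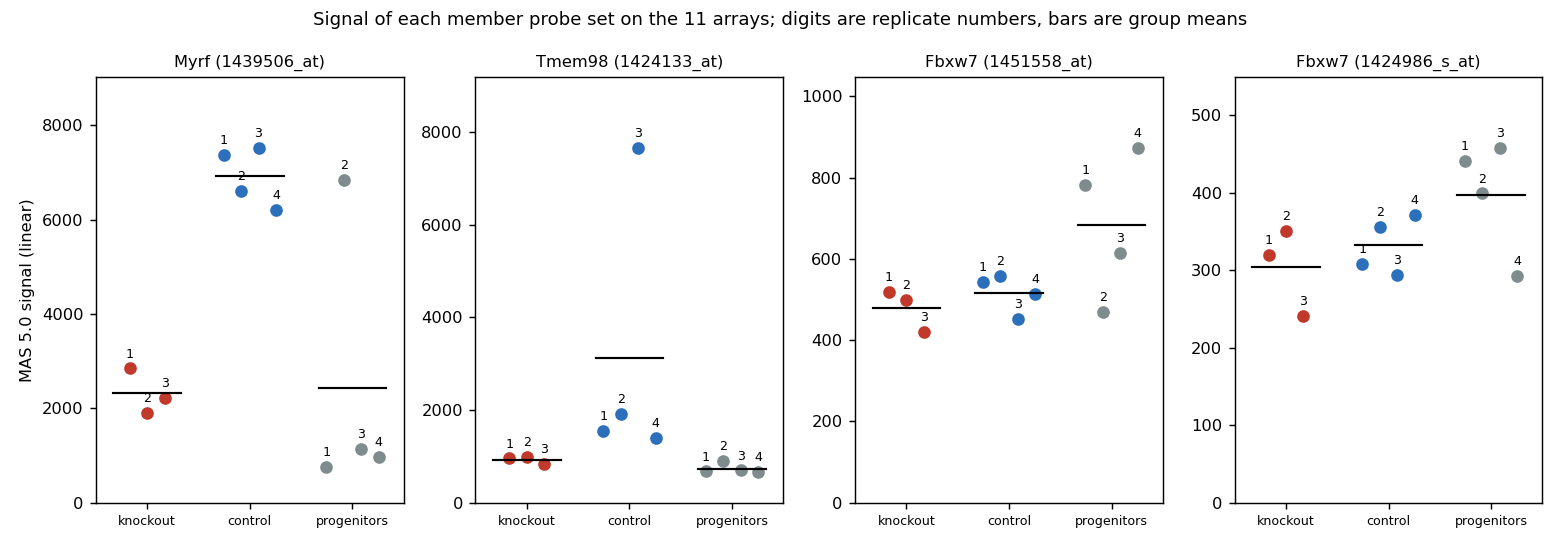
MAS 5.0 signal (linear axis from 0) of each member probe set on every array, with the replicate number beside each point and a bar at the group mean, for knockout oligodendrocytes, control oligodendrocytes and progenitors. Myrf is high on the 4 control arrays and on progenitor replicate 2, Tmem98 reaches 7652.7 on control replicate 3, and the Fbxw7 groups overlap.

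Tmem98, the inhibitor of Myrf cleavage, was also highest in control oligodendrocytes. Probe set 1424133_at gave 1555.4, 1921.0, 7652.7 and 1402.7 on control replicates 1 to 4. It gave 957.9, 983.2 and 837.6 on knockout replicates 1 to 3, and 676.7, 904.3, 698.9 and 668.5 on progenitor replicates 1 to 4. Every control array was above every knockout and progenitor array. Arrays were also apart, in either direction, for 29.1% of all probe sets tested between knockout and control and for 43.7% between control and progenitors. Control replicate 3 was about 4-fold above the next control. The control mean was 3133 ± 3021 (SD, n = 4) with that array and 1626 ± 266.3 (SD, n = 3) without it. The knockout mean of 926.2 ± 77.79 (SD, n = 3) was 29.6% of the first and 57% of the second, and by medians it was 55.1%.

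The fitted Tmem98 difference, knockout minus control, was -1.35 ± 0.47 (SE) on the log2 scale, with an interval from -2.37 to -0.33 and an adjusted p of 0.133 in limma. The exact permutation p was 0.0571, again the smallest possible. Without control replicate 3 the difference was -0.79, with an adjusted p of 0.0597 in the fit over the remaining arrays and 0.0137 in a fit of the oligodendrocyte arrays alone. With the replicate block the difference was -1.60 and the adjusted p was 0.0477, and with array quality weights -1.02 and 0.0282. So neither Myrf nor Tmem98 was among the 3.14% of probe sets called lower in knockout cells or the 2.34% called higher, and both were called lower under some settings.

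Tmem98 rose from progenitors to control oligodendrocytes by 1.68 ± 0.43 (SE) on the log2 scale, a fold of 3.21, with an adjusted p of 0.00698 in limma. The arrays were apart, as they were for 43.7% of probe sets in this comparison, and the exact permutation p of 0.0286 was the smallest possible. The call held under all 24 alternatives, with differences from 1.12 to 1.94, and without control replicate 3 the difference was 1.12 with an adjusted p of 0.000939. Knockout oligodendrocytes differed from progenitors by 0.33 ± 0.47 (SE), with an interval from -0.69 to 1.35 and an adjusted p of 0.57. Knockout replicate 3, at 837.6, was below progenitor replicate 2, at 904.3, and above the other progenitor arrays. Without progenitor replicate 2 the progenitor mean was 681.4 ± 15.73 (SD, n = 3) and the ratio of means was 1.36. The exact permutation p was then 0.1, the smallest possible. Under all 23 alternatives this Tmem98 difference was not called in limma, at 0.21 to 0.43.

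Control replicate 3 was also at an extreme among the controls for genes other than Tmem98. Mog, found on the outermost layer of myelin, gave 5318 there and 403.3 to 1742.8 on the other controls. Mal, a myelin proteolipid, gave 10037.8 there and 2178.8 to 5222.3 elsewhere. Tcf7l2, a factor of newly formed oligodendrocytes, was lowest there at 896.3, with 2723.1 to 3061.1 on the other controls. Myrf itself was 7517.4 on that array and 7374.0 on control replicate 1. The part of these differences between control arrays in the Tmem98 result was not tested beyond leaving the array out.

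Fbxw7 differed little between knockout and control oligodendrocytes. Probe set 1451558_at gave 518.7, 498.3 and 421.2 on the knockout arrays and 544.1, 557.7, 452.5 and 514.0 on the control arrays, which overlap. The means were 479.4 ± 51.42 (SD, n = 3) and 517.1 ± 46.76 (SD, n = 4). The difference, knockout minus control, was -0.11 ± 0.22 (SE) on the log2 scale, with an interval from -0.59 to 0.37 and an adjusted p of 0.862 in limma. The second probe set, 1424986_s_at, gave 319.7, 351.1 and 240.9 against 308.1, 355.9, 294.5 and 371.4, and a difference of -0.13 ± 0.21 (SE) with an adjusted p of 0.814. The intervals of both probe sets, the second from -0.60 to 0.34, include 0. They exclude the Myrf estimate of -1.58 but overlap the Myrf interval, from -2.85 to -0.32. Whether Fbxw7 and Myrf differed in this was not tested.

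Progenitors gave the highest Fbxw7 signals but not on every array. For 1451558_at they were 781.2, 468.7, 615.6 and 872.5, high on replicates 1 and 4 and within the oligodendrocyte range on replicate 2. The progenitor mean was 684.5 ± 178.9 (SD, n = 4). Control oligodendrocytes differed from it by -0.36 ± 0.20 (SE) on the log2 scale, with an adjusted p of 0.152 in limma and an exact permutation p of 0.143. Knockout oligodendrocytes differed by -0.47 ± 0.22 (SE), with an adjusted p of 0.0941 and an exact permutation p of 0.171. Without progenitor replicate 2 both were called lower than progenitors, at -0.53 with an adjusted p of 0.0248 and -0.63 with an adjusted p of 0.0144.

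The high Fbxw7 values coincided with the low Gapdh ratios of progenitor replicates 1 and 4. Those arrays averaged 826.8 and replicates 2 and 3 averaged 542.2. That lower average joins unlike arrays. Replicate 3 gave 615.6, above the highest oligodendrocyte array at 557.7, and replicate 2, which stood apart in its markers, gave 468.7. Set against replicates 2 and 3 alone, the control difference was -0.06 with an adjusted p of 0.816 and the knockout difference was -0.16 with an adjusted p of 0.515. The second probe set did not repeat the split, with 440.8, 399.2, 457.6 and 292.4 on progenitor replicates 1 to 4. The part of RNA or labelling length in the progenitor values was not tested.

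**Figure D2:**
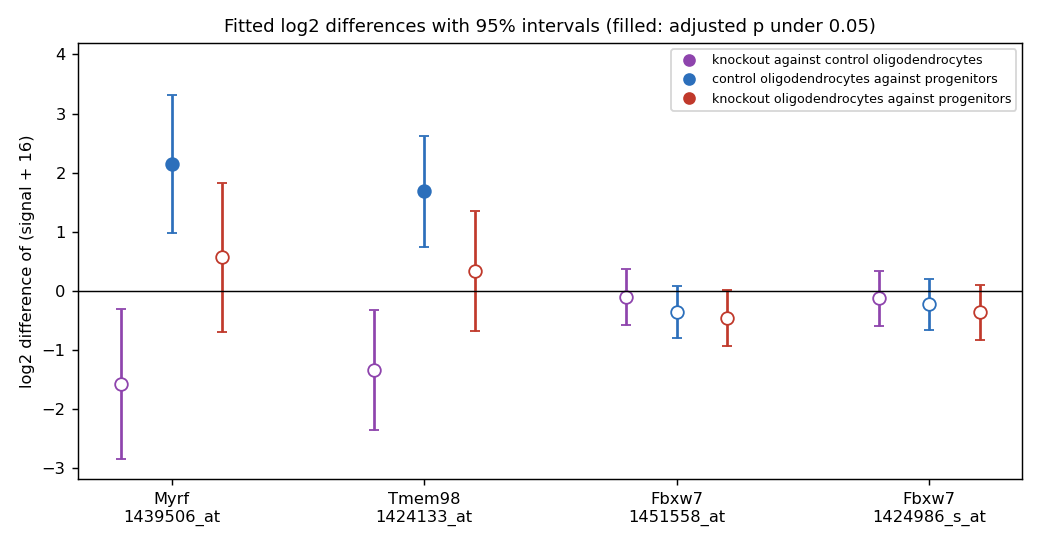
Fitted log2 differences of the 4 member probe sets with 95% intervals in the 3 comparisons, filled where the adjusted p of limma is under 0.05. Only Myrf and Tmem98 in control oligodendrocytes against progenitors are filled, at 2.15 and 1.68, and the Fbxw7 intervals all include 0.

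The 23 alternatives for the knockout comparison gave Myrf a difference between -1.74 and -1.45 and adjusted p-values between 0.000288 and 0.426. For Tmem98 they gave -1.60 to -0.79 and 0.0137 to 0.307. The sign was negative in every one, and the size of the Tmem98 difference depended on control replicate 3. Fbxw7 stayed between -0.20 and -0.02 with adjusted p-values from 0.54 to 0.984.

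**Figure D3:**
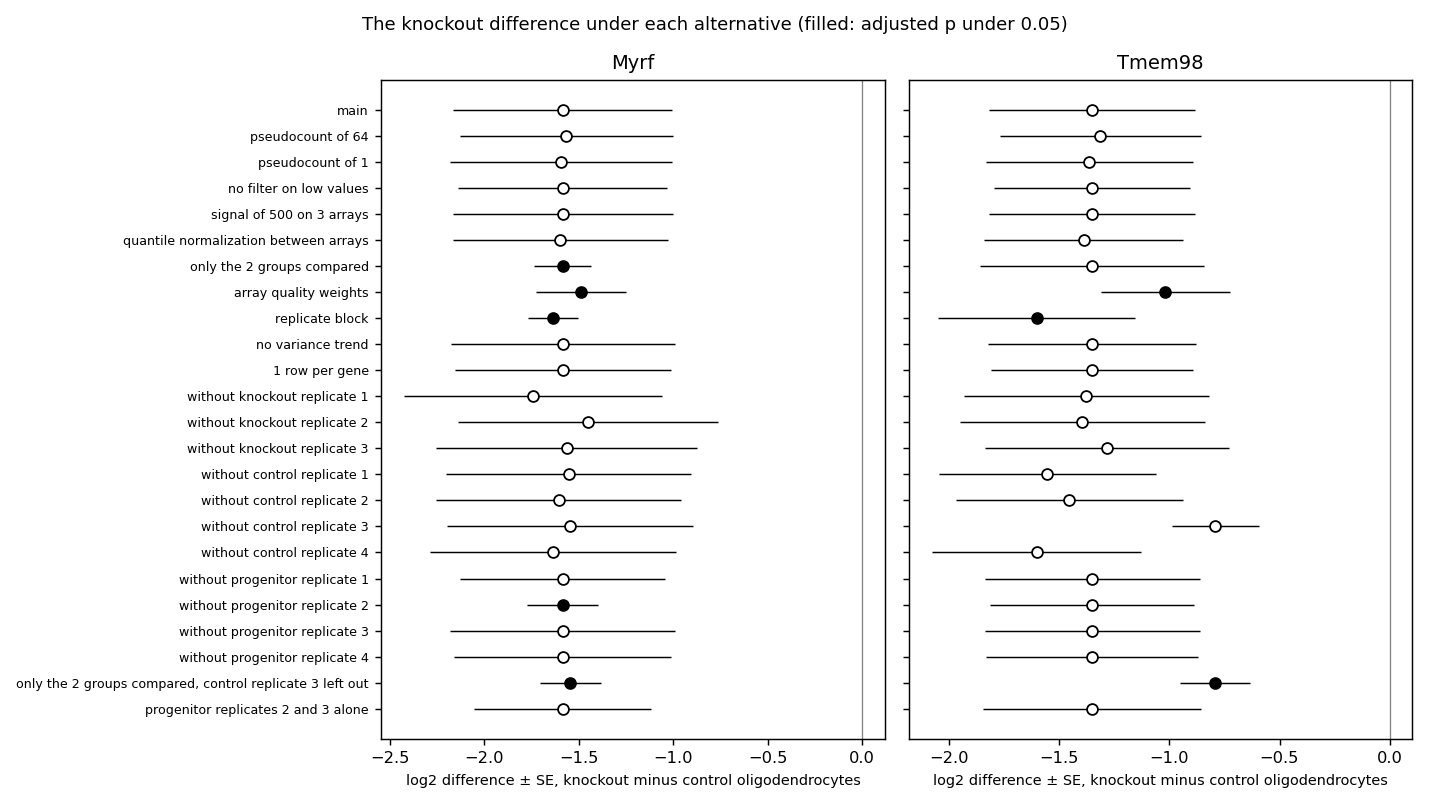
The log2 difference ± SE of Myrf and Tmem98, knockout minus control oligodendrocytes, in the main fit and under each alternative, filled where the adjusted p is under 0.05. Differences lie left of 0 throughout, Myrf passes under 5 alternatives and Tmem98 under 3, and Tmem98 is closest to 0 without control replicate 3.

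The genes nearest to each member in profile were found as the smallest root mean square difference over the 11 arrays, each profile centred on its mean of log2(signal + 16). The arrays share their groups and their labelling, and these values are descriptions. For Myrf, whose own profile had an SD of 1.27, they were Fcor at 0.30, Gramd3 at 0.34, Trim13 at 0.34, Tubb4a at 0.37 and Tmtc2 at 0.40. Each was raised on progenitor replicate 2 as Myrf was. Tubb4a, a brain tubulin, gave 13428.3 there and 1396.6 to 2731.3 on the other progenitors. Gramd3 gave 1745.2 there and 455.2 to 484.2 on the others. Fcor gave at most 376.6 on any array, so its match rests on low values.

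For Tmem98, with a profile SD of 1.01, the nearest were Gpd1 at 0.28, Pfkfb4 at 0.34, Dpy19l1 at 0.36, Slc9a3r2 at 0.37 and Smad7 at 0.39. All 5 were highest on control replicate 3. Gpd1, which links glycolysis to glycerol lipids, gave 3865.8 there and 1005.1 to 1442.2 on the other controls. Smad7, an inhibitor of TGFβ and BMP signalling, gave 2284.2 there and 553.2 to 727.3 on the others. This likeness therefore rests largely on 1 array. For Fbxw7, with a profile SD of 0.31, they were C1d, Braf, Ddx52, Tlk1 and Gkap1, all at 0.12. Each of these was highest on progenitor replicates 1 and 4, and Braf, a kinase of the MAPK pathway, gave 995.9 and 1231.4 there against 706.2 and 813.1 on progenitor replicates 2 and 3.

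**Figure D4:**
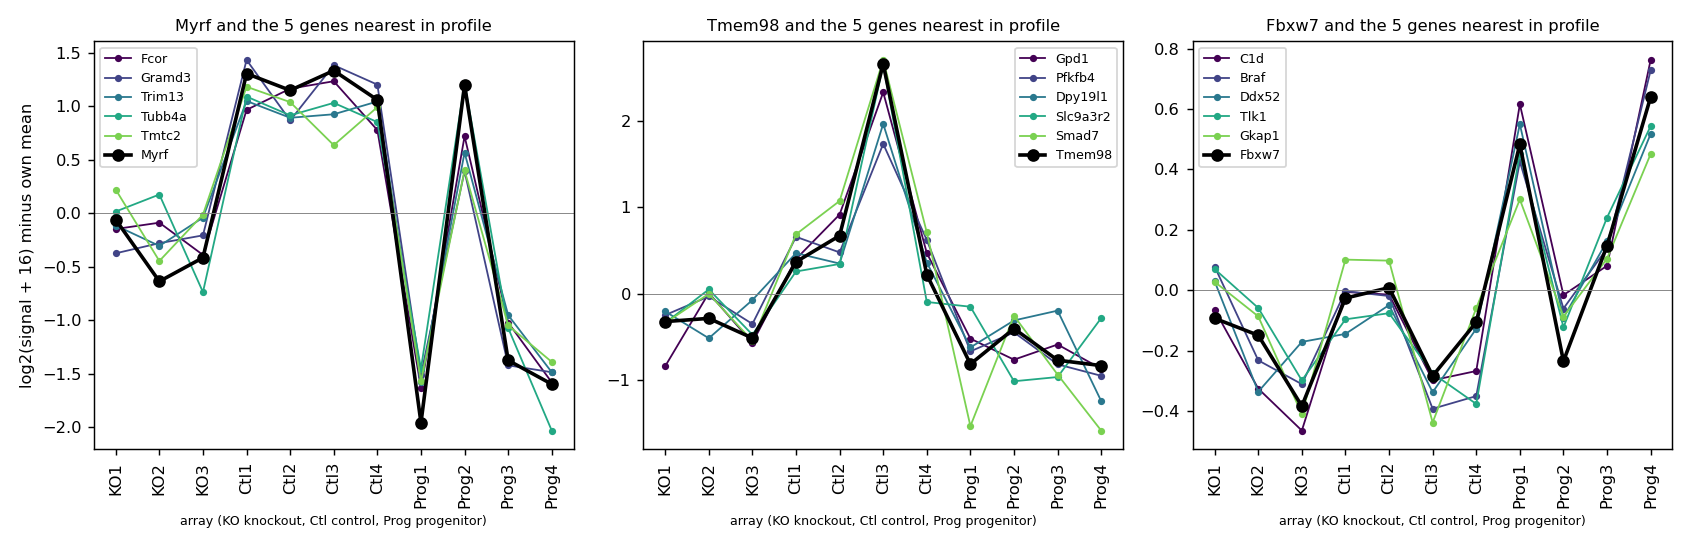
Centred profiles, log2(signal + 16) minus each probe set's own mean, of each member (black) and its 5 nearest genes over the 11 arrays (KO knockout, Ctl control, Prog progenitor). The Myrf set is raised on progenitor replicate 2, the Tmem98 set peaks on control replicate 3, and the Fbxw7 set, on a narrower axis, is highest on progenitor replicates 1 and 4.

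No other listed part of the Fbxw7 ligase was called between knockout and control oligodendrocytes. Of 12 listed genes for the ligase, its priming kinases and its regulators, 8 were tested, 0 were called in limma and 0 had an unadjusted p under 0.05, and their median difference was 0.02 against 0.03 for all probe sets tested. With 2.34% of all probe sets called higher and 3.14% lower, a count of 0 among 8 is near the background. The adaptor Skp1 differed by 0.22 (adjusted p = 0.595), the scaffold Cul1 by -0.30 (0.614) and the kinase Gsk3b by 0.60 (0.483). The Cul1 arrays did not overlap, nor did those of 29.1% of all probe sets tested. The RING subunit Rbx1 was below the filter on its 1 probe set, with group means from 36.85 to 92.5.

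Against progenitors, 3 of these 8 genes fell in control oligodendrocytes and 0 rose, beside 26.3% of all probe sets called lower and 27% higher, with a median of -0.39 against -0.01 for all. Gsk3b, whose phosphorylation precedes recognition of Myrf by Fbxw7, fell by 1.72 on the log2 scale with an adjusted p of 0.00283. Usp28, a deubiquitinase that acts on Fbxw7 substrates, fell by 0.69 with an adjusted p of 0.00865. Cand1, which exchanges the substrate subunits on the ligase, fell by 0.43 with an adjusted p of 0.0341, a call lost under 10 of 24 alternatives. Skp1 and Cul1 were not called, at 0.38 (adjusted p = 0.0779) and -0.34 (0.256), though Skp1 was called without control replicate 3 (0.0466) or progenitor replicate 2 (0.0221).

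In knockout oligodendrocytes against progenitors, the same 3 genes were called lower and Skp1 was called higher. Here 26.4% of all probe sets were called higher and 24.1% lower, and 49.6% had arrays that did not overlap. Gsk3b fell by 1.12 with an adjusted p of 0.0372, Usp28 fell by 0.61 with 0.0233 and Cand1 fell by 0.50 with 0.0268. Skp1 rose by 0.60 with 0.0178. Each of these 4 calls was lost without at least 1 array. Without knockout replicate 3, for example, the adjusted p-values were 0.0651, 0.0637, 0.0678 and 0.0694. The comparisons share arrays, so they are set side by side and not counted as separate support.

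Of 21 listed proteins described as substrates of Fbxw7 other than Myrf, 15 had transcripts that were tested. Only Hif1a, the oxygen-regulated transcription factor, rose in knockout against control oligodendrocytes, by 0.89 ± 0.14 (SE) with an adjusted p of 0.00273. It gave 11325.9, 9065.9 and 10924.6 on the knockout arrays and 5364.2, 5892.1, 5578.3 and 5609.2 on the controls. The progenitor mean was 10670, so the control oligodendrocytes were the low group. None of the 15 fell in that fit. Beside 2.34% of all probe sets called higher and 3.14% lower, counts of 1 and 0 among 15 are near the background. The median of the 15 was 0.30 against 0.03 for all. With the replicate block 2 rose and 1 fell. Myc differed by -0.12 (adjusted p = 0.835) and Notch1 by 0.48 (0.288).

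Between control oligodendrocytes and progenitors 4 of the 15 rose and 7 fell, with a median of -0.36 beside -0.01 for all. The share that rose was near the 27% of all probe sets called higher, and 26.3% were called lower. Cyclin E1 (Ccne1) fell by 2.73 with an adjusted p of 0.00258, cyclin E2 (Ccne2) fell by 2.08 with 0.0088 and the mitotic kinase Aurka fell by 2.62 with 0.00049. With progenitor replicates 2 and 3 alone the Ccne1 difference was -1.48, and Ccne2 was not called, at -1.59 with an adjusted p of 0.0871. Ccne1 gave 4478.4 and 5153.6 on progenitor replicates 1 and 4, the arrays with low Gapdh ratios, and 646.3 and 1101.5 on replicates 2 and 3. Notch1 fell by 1.32 with 4e-04. The risers were Jun by 2.07 with 0.00122, Cebpd by 1.88 with 0.0018, the lipid regulator Srebf1 by 1.24 with 0.000524 and Notch2 by 0.97 with 0.0425, the last lost under 13 of 24 alternatives. The falling cyclins moved with the markers of dividing cells, 4 of 4 of which were lower in control oligodendrocytes, at summed signals of 1192.3 to 4403.5 against 8989.6 to 44364.9. The part of cell division in these values was not tested.

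In knockout oligodendrocytes against progenitors 6 of the 15 rose and 6 fell, beside 26.4% and 24.1% of all probe sets. Cebpd rose by 2.90 with an adjusted p of 0.000213 and Srebf1 rose by 1.65 with 0.000149. Aurka fell by 3.77 with 8.51e-05 and Ccne2 fell by 3.72 with 0.000518. Dividing-cell markers summed to 554 to 895.4 on the knockout arrays.

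Among 16 tested factors that act upstream of Myrf or beside it, 1 was called in each direction between knockout and control oligodendrocytes, beside 2.34% of all probe sets called higher and 3.14% lower. Nkx2-2, a homeodomain factor of early differentiation, rose by 1.71 with an adjusted p of 0.0473. It gave 9912, 10128.9 and 8890.1 on the knockout arrays and 3590.1, 3520, 1873.2 and 3147.6 on the controls. These do not overlap, nor do those of 29.1% of all probe sets tested. That call was lost under 12 of 23 alternatives, among them the removal of any 1 of the 7 oligodendrocyte arrays. Zfp536, a zinc-finger repressor, fell by 2.00 with 0.0135, from a mean of 1626 to 489.1, and the call was lost without knockout replicate 2 (adjusted p = 0.0833) or 3 (0.0727).

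The factor that induces Myrf was not called in that comparison. Sox10, which activates Myrf transcription in the lineage, had means of 9962 ± 563.3 (SD, n = 3) in knockout and 8312 ± 692.5 (SD, n = 4) in control oligodendrocytes, a difference of 0.26 with an adjusted p of 0.38. Olig2, whose gene carries the Cre allele in both groups, differed by 0.35 with an adjusted p of 0.496, and by 0.35 with 0.0435 under the replicate block. The median of the 16 was 0.01, against 0.03 for all, and the block called 2 higher and 3 lower.

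From progenitors to control oligodendrocytes 4 of the 16 rose and 9 fell, beside 27% of all probe sets called higher and 26.3% lower, so the number that rose was near the background. Nkx6-2, a homeodomain factor of maturing oligodendrocytes, rose by 3.56 with an adjusted p of 6.66e-05. Zfp536 rose by 2.67 with 0.000207, and Thra, the T3 receptor, rose by 1.38 with 0.00823. Tcf7l2 rose by 1.75 with 0.0249, a call lost under 7 of 24 alternatives. The remodeller Chd7 fell by 1.48 with 0.000254 and the deacetylase Hdac2 fell by 0.97 with 0.000195. Sox10 fell by 0.41 with 0.0249 and Olig2 fell by 0.67 with 0.0244, but these calls were lost under 12 and 5 of 24 alternatives.

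Genes described as targets of Myrf had the largest differences of the 4 lists. Of 12 listed, 8 were tested and 5 fell in knockout against control oligodendrocytes, where 3.14% of all probe sets were called lower, with a median of -3.44 beside 0.03 for all. The list holds myelin genes for which the knockout is known, so its direction is not independent evidence. Mobp fell by 5.79 with an adjusted p of 0.00736, Mag, the adhesion protein of the inner myelin surface, fell by 5.22 with 0.00703, Mog fell by 4.80 with 0.00768 and Mal fell by 3.70 with 0.00177. Rffl, an E3 ligase, fell by 3.18 with 0.000267, and its knockout signals of 137.6 to 184.3 were also below the progenitor range of 316.9 to 1020.4. Knockout and progenitor arrays were apart, in either direction, for 49.6% of all probe sets tested. In knockout against control oligodendrocytes Mbp was not called in limma, at -0.23 with an adjusted p of 0.928. Nfasc, at -1.69 (0.115), and Opalin, at -1.92 (0.0793), were not called either. From progenitors to control oligodendrocytes all 8 rose, beside 27% of all probe sets called higher, with a median of 4.08 against -0.01 for all.

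Progenitor replicate 2, which had the Myrf signal of an oligodendrocyte, did not have the target signals of one throughout. Mag was 2956.9 there, against 107.2 to 622.1 on the other progenitors and 11996.8 to 14250.9 on the controls. Mog was 71.1 and Mobp 69.9 there, against control signals of 403.3 to 5318 and 12530.8 to 22066.3. Mbp, another listed target, was 19379.9 there, within the control range of 18664.9 to 22310.7. It gave 15041.9 on progenitor replicate 3 and 1337.9 and 1587.4 on replicates 1 and 4. On replicate 2 the listed targets Rffl, Nfasc, Mal and Opalin were below every control array. Pdgfra, the receptor used for the selection, was 6308.7 there, below the other progenitors at 13499.7 to 19102.1 and above all oligodendrocyte arrays, which reached 3531.9. Nkx2-2 was 12128.3 on that array, above its value on every other array.

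**Figure D5:**
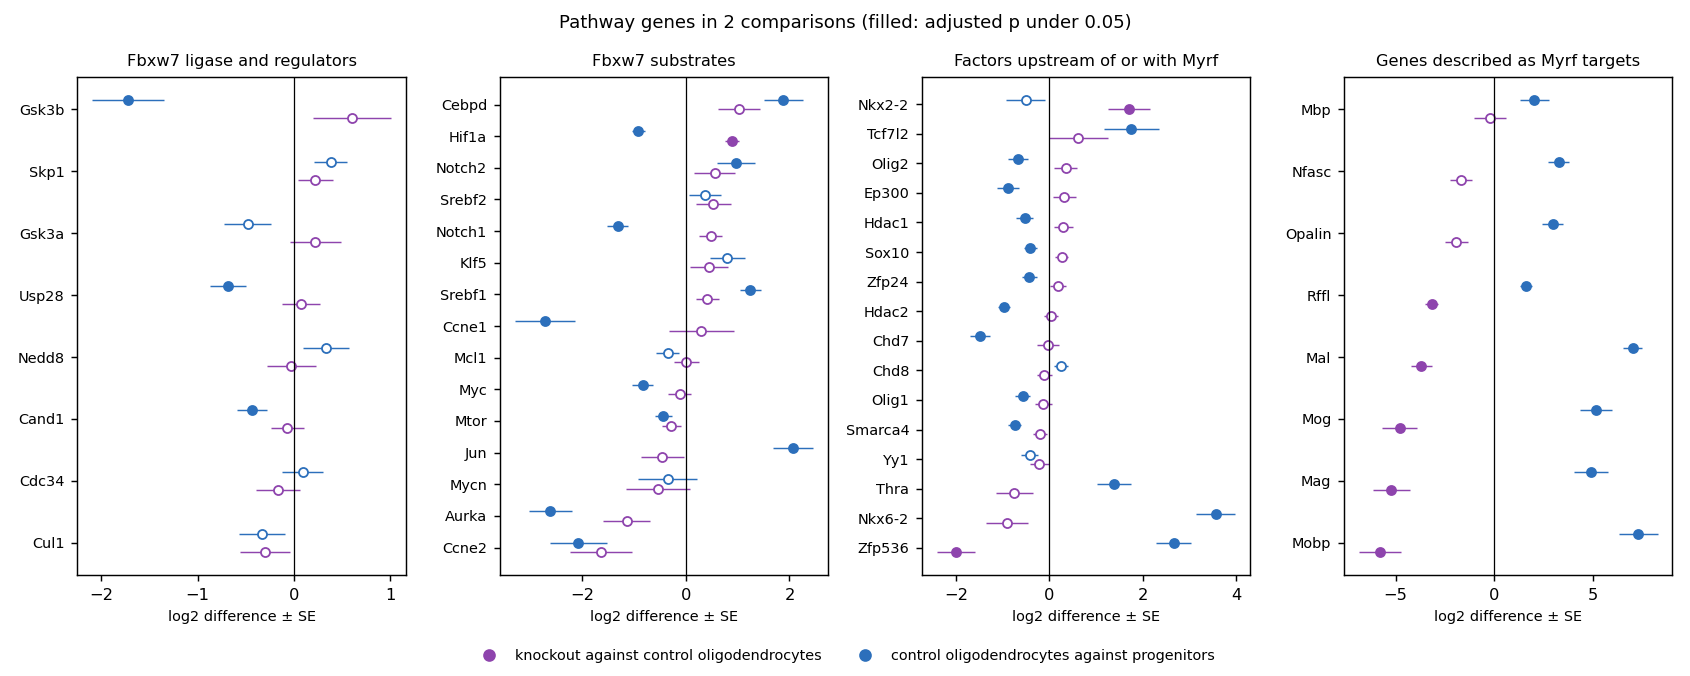
Log2 differences ± SE of the tested genes of the 4 lists, for knockout against control oligodendrocytes and for control oligodendrocytes against progenitors, filled where the adjusted p of limma is under 0.05. In the knockout comparison 0 ligase genes, 1 substrate transcript, 2 upstream factors and 5 target genes are filled.

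Markers of some other cells moved with the groups. The 6 astrocyte markers summed to 72594.7 to 74080.4 on knockout, 44017.9 to 61630 on control and 5030.8 to 10470.9 on progenitor arrays. Between knockout and control 0 of 6 were called, near the background of 2.34% of all probe sets called higher and 3.14% lower. All 6 were called higher than progenitors in control and in knockout oligodendrocytes, beside 27% and 26.4% of all probe sets. The 8 mesenchymal markers, of which 2 passed the filter, summed to 3399.2 to 6252.1, 653 to 1964.1 and 270.5 to 528.2. Of those 2, 1 was called higher in knockout than in control oligodendrocytes. The neuronal list of 5 summed to 966.3 to 1269.9, 1530.2 to 2034.3 and 1187.7 to 1289.3, but its members went different ways. Snap25 and Syt1 were highest on the progenitor arrays, at 148.9 to 196.9 and 153.2 to 408.7. Stmn2 was lowest on them, at 1.7 to 37. The lowest astrocyte and mesenchymal sums among the controls were those of replicate 3, the array with the high Tmem98. Microglial and endothelial markers passed the filter in 0 of 5 and 0 of 3 cases. The part of these cells in the member results was not tested.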

How the data were processed

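RNA was measured on 11 Affymetrix Mouse Genome 430 2.0 arrays, and groups were taken from the sample titles. Per the submitters' processing notes and the labels, the authors used GCOS 1.3 and the MAS 5.0 algorithm to make the deposited values, which are signal intensity on a linear scale, scaled per array to 500. Depth does not apply to arrays, and their number limits the precision.

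Symbols came from the platform annotation, updated through Entrez identifiers for 34754 probe sets, and no gene was named from the 932 annotated to more than 1 or the 9211 with none. The 64 control probe sets were left out of the tests. As log2(signal + 16), probe sets with a signal of 200 on at least 3 arrays entered a limma 3.58.1 fit (R 4.3.3) with a mean per group over all 11 arrays and a variance trend. P-values were adjusted by Benjamini-Hochberg over all 18568 probe sets of a comparison, with a threshold of 0.05. The pipeline was checked on simulated data. Permutation tests over arrays were exact and two-sided.

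For each list gene the brightest probe set with 1 symbol was used. Of 105 list genes 96 had one. Named were the members, up to 4 called genes of a list in each direction and comparison, and Skp1, Cul1, Rbx1, Gsk3b, Sox10, Olig2, Nkx2-2, Myc and Notch1 in any case, not all of which are printed. The members and lists were chosen with earlier results of these data known. Replicate numbers are shared between groups. For knockout and control oligodendrocytes the deviations of same-numbered arrays from their group means correlated at 0.228, 0.238 and 0.238 over probe sets. The block on replicate number is therefore given beside the results there where it changes the call. Each block fit held only the 2 groups compared and the replicate numbers that both have. Start regions are RefSeq sequences on GRCm38.p6. The alternatives were other pseudocounts, filters, normalization, arrays, weights, blocks and variance models.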

Additional observations from a re-analysis of the deposited data

Results flagged for a closer look

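Of 74 sets of 4 arrays examined, 10 held an array past Dixon's 95% critical value. The measure was its gap to its neighbour, as a share of the range of the 4. For independent sets of normal values chance gives about 1 in 20. The sets here share arrays and hold linear signals of genes partly picked because they were called, so that rate is not theirs. Of the 10, 5 were progenitor replicate 2. Myrf was 6848.4 there, with the next progenitor at 1135, a share of 0.937. Tmem98 was 904.3 there and 698.9 on the next, a share of 0.871. Nkx2-2 had a share of 0.947, at 12128.3 and 3237.3 on the next. Tcf7l2 had 0.949, at 2407.5 and 454.8. Nfasc, an adhesion molecule of nodes and paranodes, had 0.926, at 4843.3 and 938.

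Control replicate 3 accounted for 2 of the 10. Tmem98 was 7652.7 there and 1921 on the next control, a share of 0.917, and Tcf7l2 was lowest there at 896.3, with the next at 2723.1, a share of 0.844. On progenitor replicate 3 Mobp was 751.3 and the next array 69.9, a share of 0.93. Mal was 81.2 there and 17 on the next, a share of 0.832, at low signals throughout. Notch1 was 5221.1 on progenitor replicate 1 and 3444.1 on the next, a share of 0.872. The causes were not tested.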

How the results depend on the processing

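For knockout against control oligodendrocytes, the Myrf difference passed the threshold with only the 2 groups compared (-1.58), array quality weights (-1.49), the replicate block (-1.64), only the 2 groups without control replicate 3 (-1.54) and without progenitor replicate 2 (-1.58). Leaving out 1 array gave -1.74 to -1.45. Tmem98 passed with weights (-1.02), the block (-1.60) and only the 2 groups without control replicate 3 (-0.79), and leaving out 1 array gave -1.60 to -0.79. For control oligodendrocytes against progenitors, Myrf lost its call with progenitor replicates 2 and 3 alone (1.30). Fbxw7 was called with weights (-0.48) and with only the 2 groups without progenitor replicate 2 (-0.53), and leaving out 1 array gave -0.53 to -0.23, called without progenitor replicate 2. For knockout oligodendrocytes against progenitors, Myrf was called with weights (1.38) and with only the 2 groups without progenitor replicate 2 (1.27), reversed with progenitor replicates 2 and 3 alone (-0.28), and ran from 0.22 to 1.27 on leaving out 1 array, called without progenitor replicate 2. Fbxw7 was called there under quantile normalization (-0.60), weights (-0.61) and only the 2 groups without progenitor replicate 2 (-0.63), and ran from -0.63 to -0.34 on leaving out 1 array, called without progenitor replicate 2.

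The 1018 probe sets called between knockout and control oligodendrocytes became 2542 with only the 2 groups, 3401 with weights, 3733 with the block, 2219 with only the 2 groups without control replicate 3, 1746 with progenitor replicates 2 and 3 alone, and 512 to 1746 on leaving out 1 array. With 1 row per gene, which tests fewer rows, the other comparisons went from 9899 to 5422 and from 9388 to 5088, and the block took the last to 5498. List genes called went from 8 to 14 with weights, 15 with the block and 13 with only the 2 groups without control replicate 3, and from 27 to 17 with the block for knockout oligodendrocytes against progenitors. The block changed the call of the members in no other comparison. In comparisons with progenitors the deviations of same-numbered arrays correlated at -0.143 to 0.176, so there the arrays share only a number.

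Small differences that changed sign were the second Fbxw7 probe set (-0.241 to 0.0167) and Myc (-0.304 to 0.0078) between knockout and control on leaving out 1 array, Cul1 (0.10, progenitor replicates 2 and 3 alone) and Nkx2-2 (0.0783, weights) between control and progenitors, and Sox10 (0.22 quantile, 0.0381 weights) and Olig2 (0.0099, quantile) between knockout and progenitors. The second Fbxw7 probe set has no value at a filter of 500 on 3 arrays. Quantile normalization moved the median of all probe sets by under 0.1. Alternatives that leave out the doubted arrays in fits of 2 groups, or keep progenitor replicates 2 and 3, were chosen after seeing the data. The causes were not tested.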
